A study of Homo sapiens with 6 samples.

Results

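The genes described here encode the factors that start and elongate protein chains on cytosolic ribosomes, measured after depletion of E6AP in DU145, a long-established line from a human prostate cancer. They were taken by name from the deposited table of read counts: rows whose symbol begins with EIF1 to EIF6, EEF1 or EEF2, without names that end in P and a number and without 1 further gene that the rule sets aside. This gave 65 of 33835 gene rows, out of 112 with the name pattern. Among the 47 rows left out are processed pseudogenes and also the 3 genes of the eIF4E-binding proteins, which are no pseudogenes and are given further on. Of the 65 rows, 58 are translation factors, their subunits, close copies or kinases. Another 4 rows are Argonaute genes under their older symbols (EIF2C1 to EIF2C4), and 3 are EEF1B2 pseudogenes under older symbols (EEF1B1, EEF1B3 and EEF1B4).

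E6AP is a ubiquitin ligase encoded by UBE3A. Both groups were DU145 cells grown in DMEM with fetal calf serum, penicillin and streptomycin and given doxycycline, the inducer of the knockdown, at 0.2 µg/ml for 2.5 days. The 3 shE6AP libraries came from cells transduced with a short hairpin against E6AP and the 3 wobble libraries from cells given the wobble control. The labels do not say what distinguishes the wobble sequence, whether each line is 1 clone, or whether the libraries are separate cultures, so every p-value below measures only the spread between these libraries, which may be technical. Reads on genes ran from 21558506 to 30488217 per library, and 1 read was worth at most 0.0468 CPM, the unit of counts scaled to library size, here with TMM factors. UBE3A stood at 14.2, 14.5 and 14.97 CPM in shE6AP and at 54.1, 55.4 and 57.9 CPM in wobble, so the groups lay apart and 26.1% of the wobble level remained. Of 16 markers fixed to check the cell line, 12 had a row. The epithelial keratins KRT8 and KRT18 averaged at least 318 CPM in each group. Of the blood, fibroblast and endothelial markers with a row, PTPRC and CDH5 averaged at most 0.359 CPM in either group, COL1A2 averaged 1.202 CPM in wobble and 0.245 CPM in shE6AP, CD68 34.5 and 25.2 CPM, and COL1A1 13.1 and 17.4 CPM; their part in the results was not tested.

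As background, initiation begins when eIF2, loaded with GTP and initiator tRNA, joins the small ribosomal subunit together with eIF1, eIF1A, eIF3 and eIF5. The eIF4F group (the cap-binding eIF4E, the scaffold eIF4G and the helicase eIF4A) brings in the mRNA, and after start codon recognition eIF5B joins the large subunit. eIF2B reloads eIF2 with GTP, and kinases that phosphorylate eIF2 block that step under stress. In elongation, eEF1A delivers each charged tRNA, the eEF1B subunits recharge eEF1A with GTP, and eEF2 moves the ribosome along by a codon.

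In the cells with the E6AP hairpin more factor genes were lower than higher. Of 64 rows tested, 17 rose (26.6%), 34 fell (53.1%) and 13 did not pass the threshold of 0.05 (edgeR's quasi-likelihood test, adjusted after Benjamini-Hochberg over all genes tested). The 64 include the Argonaute rows and tested pseudogene rows. Without those, 16 of 58 rose (27.6%), 31 fell (53.4%) and 11 did not pass. Over all 19433 genes tested, 59% passed, 28.6% rose and 30.4% fell. Among the 12384 tested genes with a mean of at least 5 CPM, the level that 61 of the 64 rows reach, 34.5% rose and 38.1% fell. The factor changes were small: their median size regardless of sign was 0.21 on the log2 scale against 0.26 over all tested genes and 0.23 over those of at least 5 CPM, and the fitted values ran from -0.88 to 0.67. Against a fold of 1.2 (edgeR's glmTreat) only 2 factor genes stayed higher (EIF2S2 and EIF5) and 10 lower. These were 3.12% and 15.6% of the 64 rows and 3.45% and 17.2% of the 58, beside 13.1% and 15.9% of all tested genes. The 3 shE6AP and 3 wobble values did not overlap for 51 of the 64 rows (79.7%), as for 62.6% of all tested genes. In bulk RNA, fewer cells with a transcript and less of it per cell cannot be told apart.

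The complexes differed in their balance. All 3 eIF2 subunits rose, while 3 of 4 eIF2 kinases fell and none rose. In eIF3, 10 of 14 rows fell and 3 rose, with the near-identical copies EIF3C and EIF3CL both among the falls. Of the 8 elongation rows, which include the kinase EEF2K, EEF1E1 and EEF1G with its few reads, 7 fell and 1 rose. Of the 50 initiation rows, 15 rose, 24 fell and 11 did not pass. Over all genes tested 28.6% rose and 30.4% fell, and among those of at least 5 CPM 34.5% and 38.1%. The median log2 fold change was 0.30 for eIF2, -0.09 for eIF2B, -0.25 for the kinases, -0.15 for eIF3, -0.28 for eEF1 and 0.14 for the eIF4E family, beside 0.0084 over all genes tested. The eEF1 median includes EEF1E1 and EEF1G. That of the eIF4E family lies between EIF4E2 and EIF4ENIF1, whose calls were lost without single libraries. All of these counts and medians are descriptions of small groups and carry no test.

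**Figure D1:**
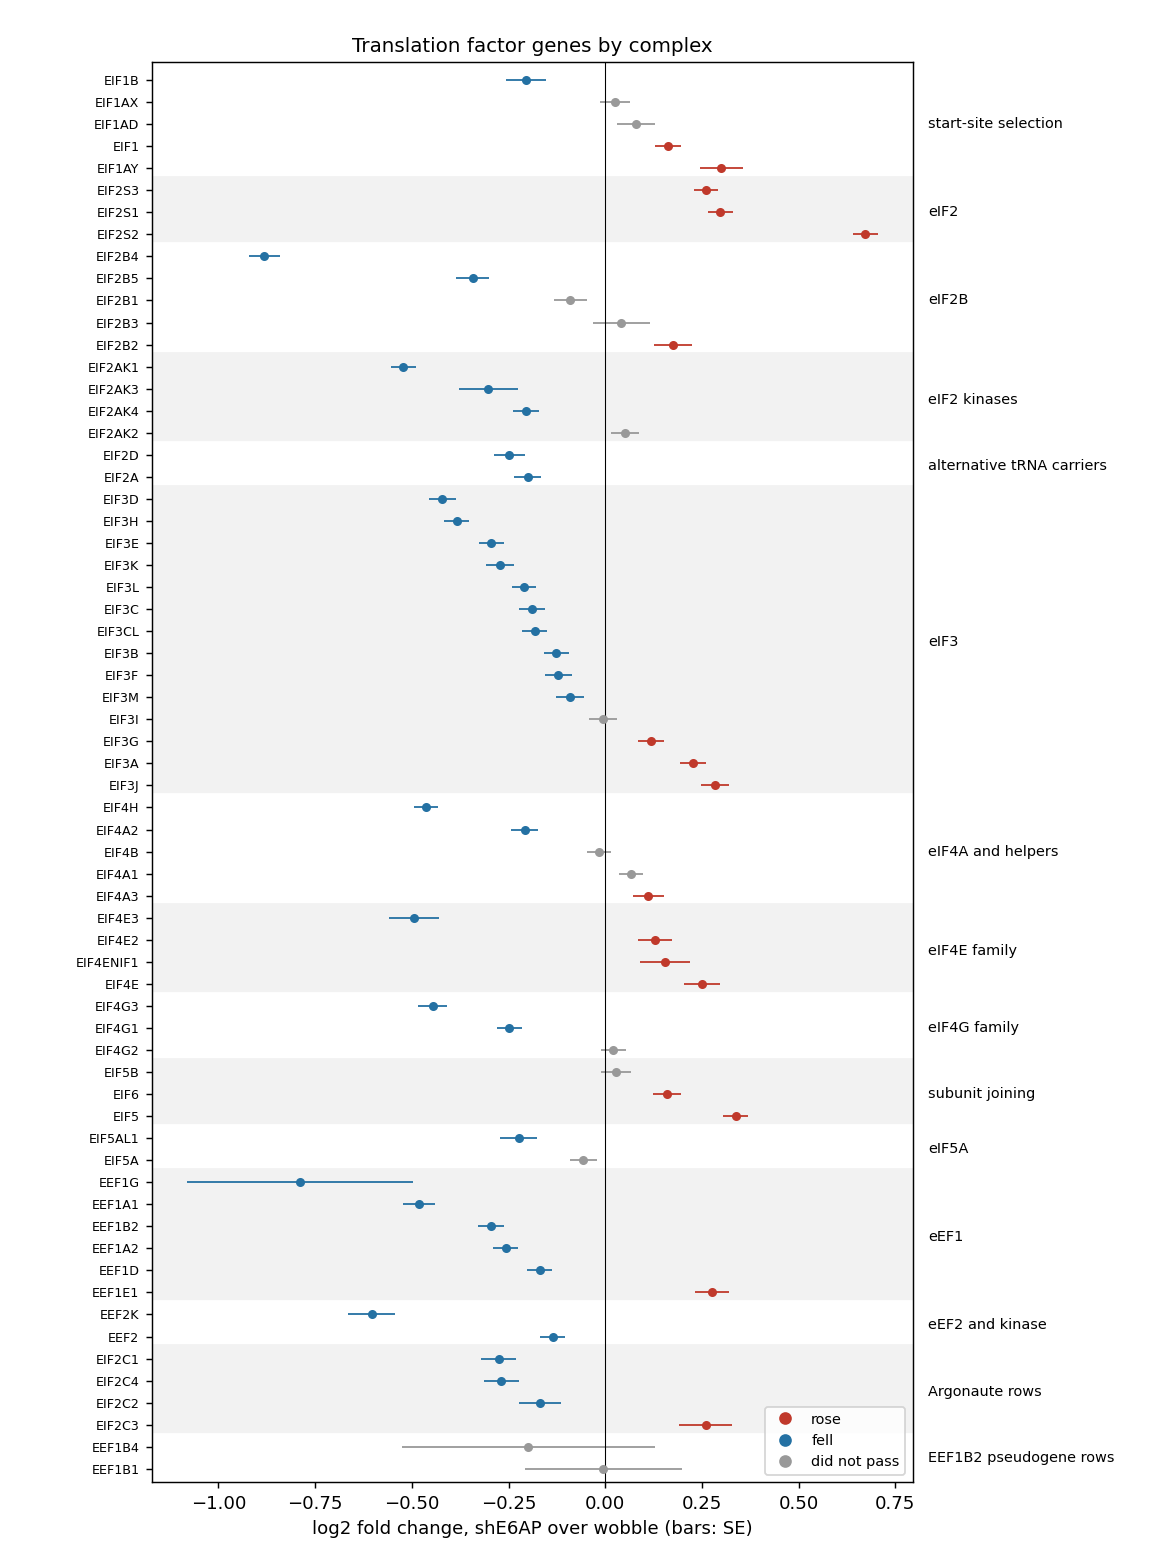
Each of the 64 tested rows at its log2 fold change, shE6AP against wobble (horizontal axis), grouped by complex (vertical axis), with bars for the standard error of the fit. Red points rose, blue fell and grey did not pass; the eIF2 rows all lie to the right of 0, whereas EIF2B4 (-0.88) lies farthest to the left.

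eIF2 is a trimer whose alpha subunit carries the site that the stress kinases phosphorylate, and it was the only complex with all of its tested genes higher. EIF2S2, the beta subunit, stood at 211, 211 and 208 CPM in the shE6AP libraries and 134.2, 131 and 129.8 CPM in the wobble libraries (log2 fold change 0.67, SE 0.033, adjusted p = 1.19e-21). Each shE6AP library was above every wobble library, and this was the largest rise among the factor genes. EIF2S1, the alpha subunit, was measured at 178, 181 and 178 CPM in the shE6AP libraries and 146, 144 and 147 CPM in the wobble libraries (log2 fold change 0.30, SE 0.033, adjusted p = 1.3e-10), again without overlap. EIF2S3, the gamma subunit that binds GTP and the initiator tRNA, was at 284, 283 and 288 CPM in the shE6AP libraries and 239, 238 and 238 CPM in the wobble libraries (log2 fold change 0.26, SE 0.031, adjusted p = 1.3e-09). Reads of EIF2S2 are shared with processed pseudogenes: 4 pseudogene rows held reads, and the parent row kept 79.6% to 81.1% of the family's reads. With parent and copies summed the log2 fold change was 0.68 (SE 0.032), close to that of the row itself. Together the 3 genes took 0.0679%, 0.0668% and 0.0678% of gene reads in the shE6AP libraries and 0.0515%, 0.0514% and 0.0510% in the wobble libraries, a higher share in each shE6AP library.

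eIF2B, the exchange factor that reactivates eIF2, went against eIF2 in its subunits of largest change. EIF2B4, the delta subunit of its regulatory part, was at 45.6, 44.9 and 46.6 CPM in the shE6AP libraries and 86.9, 83.7 and 82.2 CPM in the wobble libraries (log2 fold change -0.88, SE 0.04, adjusted p = 6.26e-23), the largest fall among the factor genes, with every wobble value above every shE6AP value. EIF2B5, the catalytic epsilon subunit, was at 52.8, 48.5 and 50.5 CPM in the shE6AP libraries and 66.7, 61.6 and 64.8 CPM in the wobble libraries, also apart (log2 fold change -0.34, SE 0.042, adjusted p = 1.92e-09). The other subunits did not follow: EIF2B2 (beta) rose by 0.17 (SE 0.049) on the log2 scale, while EIF2B3 (gamma, 0.04 (SE 0.074)) and EIF2B1 (alpha, -0.09 (SE 0.042)) did not pass. In GENCODE 29, 23.6% of the exonic bases of EIF2B2 are shared with another gene's exons and 15.6% of those of EIF2B1, and reads there cannot be assigned to 1 gene without strand; their part in these values was not tested. EIF2B1 passed without shE6AP library 3 (adjusted p = 0.0463) and without wobble library 2 (0.0448), and with no filter on low counts (0.0374).

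The kinases that phosphorylate eIF2 respond to different stresses. EIF2AK1 (HRI), the haem-regulated kinase and the most abundant of the 4 in reads, stood at 168, 173 and 169 CPM in the shE6AP libraries and 245, 242 and 246 CPM in the wobble libraries (log2 fold change -0.52, SE 0.032, adjusted p = 3.4e-18). Each of its shE6AP values lay below each wobble value. EIF2AK4 (GCN2, which senses amino acid shortage) changed by -0.21 (SE 0.034) and EIF2AK3 (PERK, of the endoplasmic reticulum) by -0.30 (SE 0.076) on the log2 scale, both lower in shE6AP. The fall of EIF2AK3 did not pass without shE6AP library 1 (log2 fold change -0.16, with an adjusted p of 0.0538). EIF2AK2 (PKR), which binds double-stranded RNA, was at 99.1 ± 2.36 CPM in wobble and 103 ± 1.39 CPM in shE6AP (SD, n = 3 each) and did not pass (log2 fold change 0.05 (SE 0.036)), although its groups did not overlap and it passed with upper-quartile scaling (adjusted p = 0.04998). EIF2A and EIF2D, which can bring tRNA to the ribosome without eIF2, both fell. EIF2D was at 60.9, 63.5 and 57.9 CPM in the shE6AP libraries and 74.4, 69.5 and 72.4 CPM in the wobble libraries (log2 fold change -0.25, SE 0.041, adjusted p = 9.84e-07), and EIF2A changed by -0.20 (SE 0.036) on the log2 scale.

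**Figure D2:**
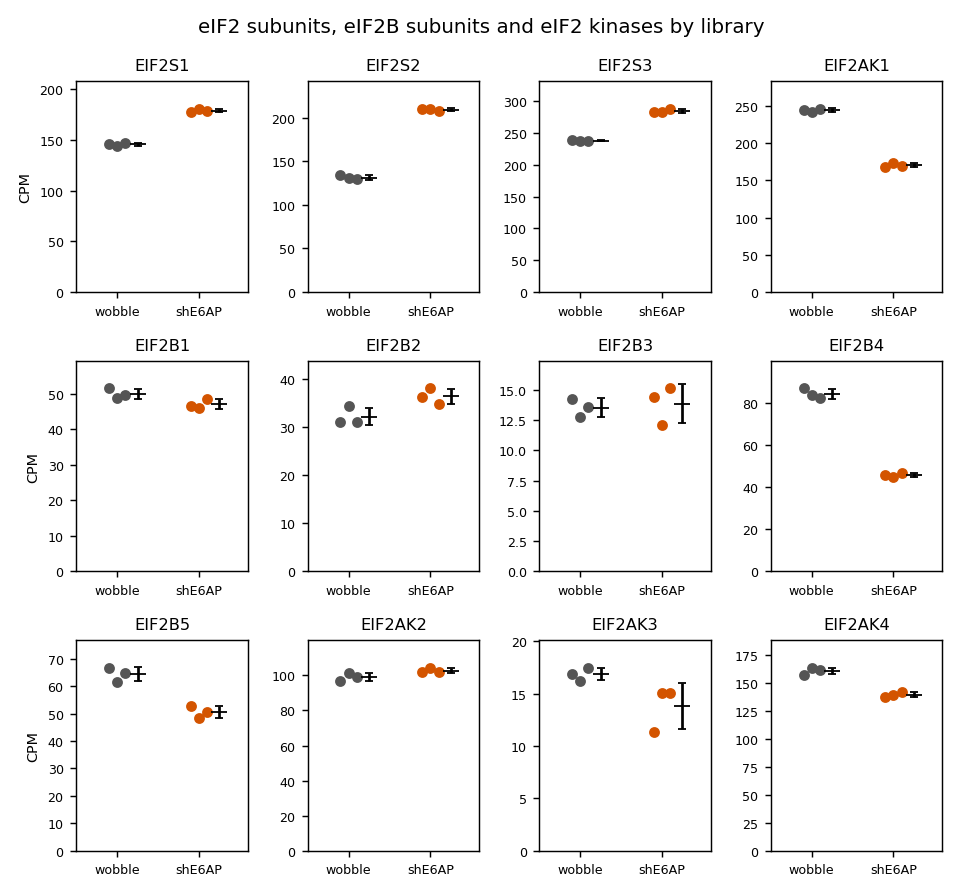
Level in CPM (vertical axes, from 0) of the 3 eIF2 subunits, 5 eIF2B subunits and 4 eIF2 kinases in the wobble (grey) and shE6AP (orange) libraries; black bars give the mean and SD of 3 libraries. EIF2S1, EIF2S2 and EIF2S3 were higher in each shE6AP library, and EIF2B4, EIF2B5 and EIF2AK1 lower in each.

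eIF3 is the largest initiation factor, built on an octamer of subunits A, C, E, F, H, K, L and M, to which B, D, G, I and J attach. Of the 8 octamer genes, 7 fell and 1 rose, with a median log2 fold change of -0.20. Of the 5 others, 2 fell, 2 rose and 1 did not pass, with a median of -0.0061. Over all genes tested 30.4% fell and 28.6% rose. EIF3H, an octamer subunit of the MPN domain family, was at 209, 207 and 203 CPM in the shE6AP libraries and 273, 264 and 270.1 CPM in the wobble libraries (log2 fold change -0.38, SE 0.032, adjusted p = 4.91e-14). EIF3D, which can itself bind the cap of some mRNAs, was at 148, 145 and 139.5 CPM in the shE6AP libraries and 203, 187 and 190.2 CPM in the wobble libraries (log2 fold change -0.42, SE 0.035, adjusted p = 5.51e-14). These 2 were the eIF3 genes that stayed lower against a fold of 1.2, and neither overlapped between groups.

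The remaining falls in eIF3 were smaller. EIF3E changed by -0.29, EIF3K by -0.27, EIF3L by -0.21, EIF3C by -0.19, EIF3B by -0.13, EIF3F by -0.12 and EIF3M by -0.09 on the log2 scale. The change of EIF3M was close to the threshold: it did not pass with upper-quartile scaling (adjusted p = 0.119), in DESeq2 (0.0624), or when wobble library 3 (0.0614) or shE6AP library 3 (0.089) was left out. EIF3C and EIF3CL are near-identical copies between which reads are divided, with 50.4% to 52.2% of their joint reads on EIF3C, and they changed alike (-0.19 and -0.18), so they count as 1 gene measured in 2 rows. For EIF3L, 51.8% of exonic bases are shared with other annotated genes. Outside eIF3, such sharing also holds for called rows: 34.0% for EEF1D, 24.2% for EIF4E2, 18.7% for EEF1E1, 17.9% for EIF4A2 and 17.4% each for EEF1B2 and EIF6. Its part in these values was not tested.

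Against these, EIF3A, the large scaffold subunit, was at 609.7, 656 and 630.0 CPM in the shE6AP libraries and 531, 535 and 553 CPM in the wobble libraries (log2 fold change 0.23, SE 0.032, adjusted p = 6.75e-08). EIF3J, a loosely attached subunit at the mRNA entry side of the ribosome, was at 105, 109.6 and 104 CPM in the shE6AP libraries and 86.8, 86.3 and 88.2 CPM in the wobble libraries (log2 fold change 0.28, SE 0.036, adjusted p = 4.15e-09), and both were higher in each shE6AP library. EIF3G rose by 0.12 (SE 0.034). EIF3I was at 155 ± 7.67 CPM in wobble and 154 ± 3.19 CPM in shE6AP (SD, n = 3 each), and its log2 fold change of -0.01 changed sign with upper-quartile and library-total scaling. As a share of gene reads the 14 rows held 0.310%, 0.310% and 0.304% in shE6AP and 0.332%, 0.328% and 0.329% in wobble.

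**Figure D3:**
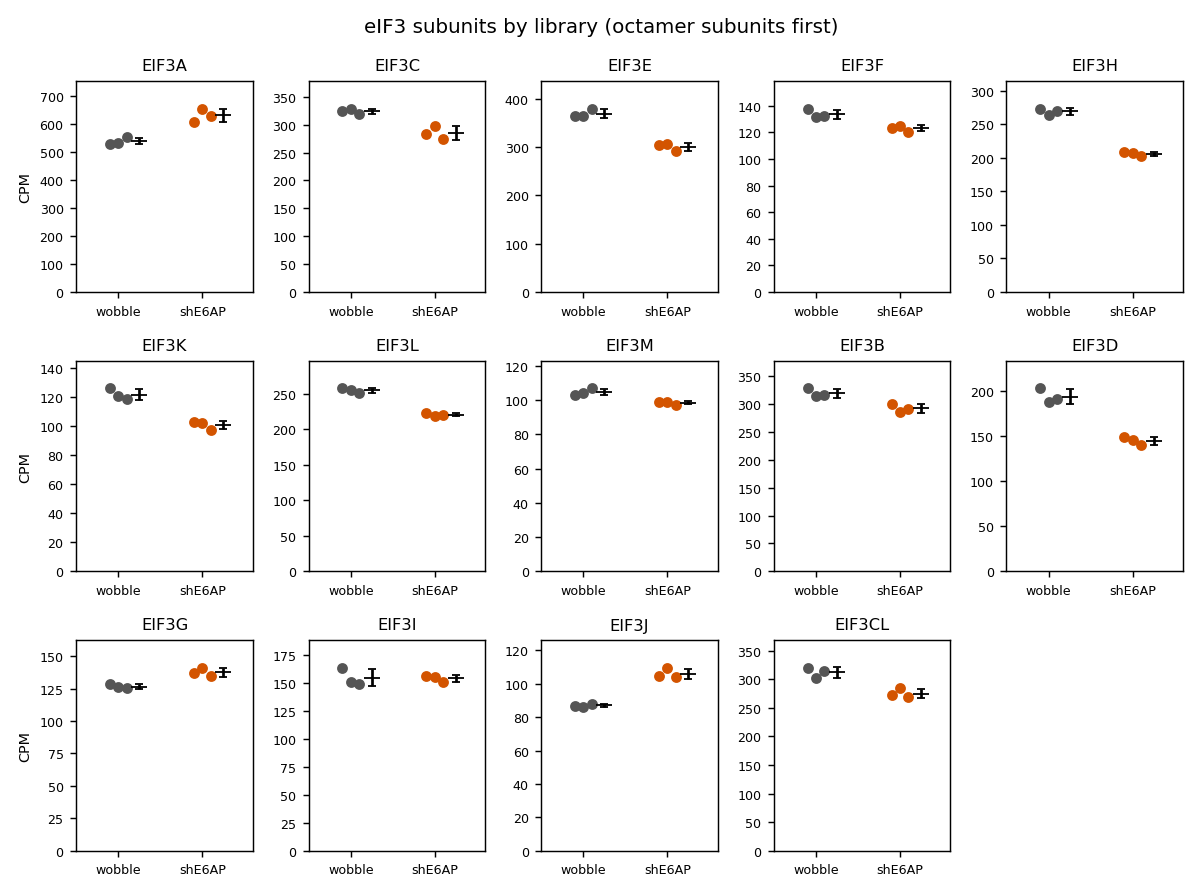
Level in CPM (vertical axes, from 0) of the 14 eIF3 rows in wobble (grey) and shE6AP (orange) libraries, octamer subunits first; black bars give the mean and SD of 3 libraries. EIF3A, EIF3G and EIF3J were higher in each shE6AP library, EIF3I overlapped, and the other 10 rows were lower in each.

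Factors that scan for and check the start codon moved both ways. EIF1, which holds the scanning ribosome open so that mismatched starts are rejected, was at 503, 477 and 509 CPM in the shE6AP libraries and 450.3, 425 and 456 CPM in the wobble libraries (log2 fold change 0.16, SE 0.033, adjusted p = 5.07e-05). Its paralog EIF1B went the other way, at 25.3, 25.2 and 25.1 CPM in the shE6AP libraries and 29.2, 27.7 and 30.4 CPM in the wobble libraries (log2 fold change -0.20, SE 0.051, adjusted p = 0.000636). EIF1AY, one of 2 genes for eIF1A, was at 25.8, 27.8 and 26.3 CPM in the shE6AP libraries and 22.1, 20.0 and 22.7 CPM in the wobble libraries (log2 fold change 0.30, SE 0.056, adjusted p = 1.03e-05), while its counterpart EIF1AX was at 72.7 ± 3.3 CPM in wobble and 73.9 ± 1.33 CPM in shE6AP (SD, n = 3 each) and did not pass. Reads from stretches that these 2 similar genes share may be divided between them. EIF1AD, a protein with an eIF1A-like domain, did not pass either (log2 fold change 0.08 (SE 0.049)). EIF5, which makes eIF2 hydrolyse its GTP at the start codon, was at 330.1, 319 and 309.7 CPM in the shE6AP libraries and 255, 253 and 251 CPM in the wobble libraries (log2 fold change 0.34, SE 0.032, adjusted p = 2.72e-12), the second largest rise of the factor genes and without overlap. EIF6, which keeps free large subunits from joining early, rose by 0.16 (SE 0.036), and EIF5B, the GTPase of subunit joining, was at 126 ± 5.99 CPM in wobble and 128 ± 6.73 CPM in shE6AP (SD, n = 3 each) and did not pass.

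In the cap-binding machinery the scaffolds EIF4G1 and EIF4G3 and the helicase EIF4A2 fell while EIF4E rose. EIF4E, the cap-binding protein itself, was at 40.04, 37 and 40.9 CPM in the shE6AP libraries and 33.8, 33.2 and 32.3 CPM in the wobble libraries (log2 fold change 0.25, SE 0.047, adjusted p = 1.21e-05). EIF4E3, an atypical family member, was at 13.2, 12.9 and 12.4 CPM in the shE6AP libraries and 17.6, 18.6 and 18.1 CPM in the wobble libraries (log2 fold change -0.49, SE 0.065, adjusted p = 9.02e-09), lower in each shE6AP library. EIF4E2, a cap-binding repressor of translation, rose by 0.13 (SE 0.045) and EIF4ENIF1, which carries eIF4E into the nucleus, by 0.15 (SE 0.064). Both calls were lost without single libraries: EIF4E2 without shE6AP library 2 (adjusted p = 0.114) or wobble library 2 (0.0572), and EIF4ENIF1 without shE6AP library 2 (0.165), shE6AP library 3 (0.0561) or wobble library 2 (0.343, log2 fold change 0.08). Without the filter on low counts neither passed (0.07 for EIF4E2 and 0.0965 for EIF4ENIF1), and EIF4ENIF1 did not pass in DESeq2 (0.102).

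The eIF4G scaffolds differed among themselves. EIF4G1 was at 687, 722 and 697 CPM in the shE6AP libraries and 845, 822 and 833 CPM in the wobble libraries (log2 fold change -0.25, SE 0.031, adjusted p = 4.53e-09). EIF4G3, its paralog, was at 70.0, 69.3 and 69.4 CPM in the shE6AP libraries and 93.4, 94.1 and 97 CPM in the wobble libraries (log2 fold change -0.45, SE 0.037, adjusted p = 3.38e-14), and for both genes the groups lay apart. EIF4G2 (DAP5), a relative that does not bind eIF4E, was at 1082 ± 25.6 CPM in wobble and 1098 ± 15.7 CPM in shE6AP (SD, n = 3 each), overlapped between groups and did not pass.

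Among the helicases and their helpers, EIF4H, which stimulates eIF4A, was at 267, 259 and 259.7 CPM in the shE6AP libraries and 369, 354 and 359 CPM in the wobble libraries (log2 fold change -0.46, SE 0.032, adjusted p = 1.02e-16). EIF4A2 was at 348, 350.4 and 360.0 CPM in the shE6AP libraries and 391.9, 390.0 and 441 CPM in the wobble libraries (log2 fold change -0.21, SE 0.036, adjusted p = 2.86e-06), and EIF4A1, the more abundant helicase in reads, at 624, 618 and 618 CPM in the shE6AP libraries and 606, 573 and 597 CPM in the wobble libraries (log2 fold change 0.07, SE 0.031, adjusted p = 0.0643). The EIF4A1 change did not pass here but did in DESeq2 (adjusted p = 0.042), limma-voom (0.0261), with upper-quartile (0.00612) or library-total scaling (0.0274), with the filter of 1 CPM (0.0356) and without wobble library 1 (0.0319). In the annotation, 48.6% of its exonic bases are shared with another gene. EIF4B, the other helper of eIF4A, was at 654 ± 5.39 CPM in wobble and 647 ± 6.26 CPM in shE6AP (SD, n = 3 each) and its log2 fold change of -0.02 changed sign with upper-quartile scaling. EIF4A3, an eIF4A relative that works in the exon junction complex, rose by 0.11 (SE 0.04), a call lost without shE6AP library 1 (adjusted p = 0.077), shE6AP library 3 (0.1045) or wobble library 2 (0.171), or with no filter on low counts (0.0604).

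Of the 8 rows with EEF names, which include the kinase EEF2K and EEF1E1, 7 fell, beside 30.4% of all genes tested. EEF1A1, which delivers charged tRNA, was at 289, 237 and 270.3 CPM in the shE6AP libraries and 389, 352 and 374 CPM in the wobble libraries (log2 fold change -0.48, SE 0.042, adjusted p = 2.16e-13), with all shE6AP values below all wobble values. The row holds a small part of the reads of its family. Another 18 rows are named as EEF1A1 pseudogenes, and only 12.6% to 14.6% of the joint reads lay on EEF1A1 itself. EEF1A1P11 alone had 39211, 28138 and 31854 reads in shE6AP and 56063, 51399 and 47384 in wobble, against 8249, 5067 and 6480 and then 11792, 10158 and 10121 on EEF1A1. Summed, the family stood at 1990, 1879 and 1915 CPM in shE6AP and 2697, 2558 and 2552 CPM in wobble, a log2 fold change of -0.43 (SE 0.033, adjusted p = 3.32e-15). Reads of a parent and of such copies cannot be told apart here, so the row gives no level for eEF1A1, while its fall was of similar size in the row and in the sum.

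EEF1A2, the paralog normally restricted to muscle and neurons, was also expressed, at 361, 359 and 354 CPM in the shE6AP libraries and 442, 430.2 and 411 CPM in the wobble libraries (log2 fold change -0.26, SE 0.032, adjusted p = 3.53e-09). EEF1B2 and EEF1D, subunits of the exchange factor eEF1B, changed by -0.30 (SE 0.033) and -0.17 (SE 0.032) on the log2 scale, both lower. EEF1G, the gamma subunit of the same complex, had only 12, 11 and 11 reads in shE6AP and 31, 22 and 16 in wobble. In GENCODE 29, 99.9% of its exonic bases also belong to a longer gene model, AP002990.1, and HTSeq sets aside reads that fit more than 1 gene; 2.05% to 2.21% of reads in the table were ambiguous. The annotation used for counting is not given in the sources used here, so whether this overlap lowered the row was not tested. Its fall (log2 fold change -0.79, SE 0.29, adjusted p = 0.0188) did not pass without shE6AP library 1 (0.075), without wobble library 1 (0.159) or in DESeq2 (0.114). EEF1E1, which shares the name but belongs to the multisynthetase complex, rose by 0.28 (SE 0.044). EEF2, the translocase, was at 2712, 2753 and 2672 CPM in the shE6AP libraries and 3063, 2966 and 2911 CPM in the wobble libraries (log2 fold change -0.14, SE 0.032, adjusted p = 0.000353), a small but non-overlapping fall. EEF2K, the kinase that inactivates eEF2, fell further, at 16.7, 21.3 and 19.4 CPM in the shE6AP libraries and 27.8, 29.3 and 29.4 CPM in the wobble libraries (log2 fold change -0.60, SE 0.061, adjusted p = 1.19e-11).

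EIF5A, which relieves ribosomes stalled on proline runs and carries the modified lysine hypusine, was at 575 ± 30.5 CPM in wobble and 553 ± 20.9 CPM in shE6AP (SD, n = 3 each) and did not pass (log2 fold change -0.06 (SE 0.035)). It passed without shE6AP library 1 (adjusted p = 0.0425) and without wobble library 3 (0.0278), and with no filter on low counts (0.0304). Its near-copy EIF5AL1 was at 31.7, 29.1 and 32 CPM in the shE6AP libraries and 35.4, 36.2 and 37 CPM in the wobble libraries (log2 fold change -0.22, SE 0.048, adjusted p = 9.06e-05), and EIF5A held 93.7% to 94.9% of their joint reads. Of the Argonaute rows, which are effectors of small RNAs and not translation factors, EIF2C4 was at 39.6, 41.6 and 40.8 CPM in the shE6AP libraries and 46.6, 48.7 and 51.4 CPM in the wobble libraries (log2 fold change -0.27, SE 0.044, adjusted p = 1.26e-06). EIF2C1 changed by -0.28, EIF2C2 by -0.17 and EIF2C3 by 0.26 on the log2 scale. The call on EIF2C2 was lost without shE6AP library 1 (adjusted p = 0.161) or wobble library 3 (0.0714). The EEF1B2 pseudogene rows EEF1B1 and EEF1B4 averaged at most 1.33 CPM and did not pass, and EEF1B3 was too low to be tested.

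Per kilobase of exonic sequence (CPM divided by the exonic length of the gene in GENCODE 29, which may differ from the models used for counting), EEF2 was the most abundant factor row in wobble at 740.0 ± 19.1 (SD, n = 3). EIF5A followed at 204 ± 10.8, EEF1B2 at 148 ± 3.89, EIF4G2 at 125 ± 2.96 and EIF1 at 123 ± 4.53 CPM per kilobase. The libraries of EIF4G2 and EIF1 overlapped, as did those of the next pair, EIF4H and EIF4A1, at 113 ± 2.32 and 111 ± 3.15. EIF4E, at 2.35 CPM per kilobase, lay far below EIF4G1 at 101 and EIF4A1. The exonic length counts every annotated exon of a gene, so a gene with long rarely used exons reads low on this scale. EEF1A1 has no place in this order, since its row holds at most 14.6% of the reads of its family. Every eIF2 subunit (25.8 to 68.5 CPM per kilobase in wobble) exceeded every eIF2B subunit (3.97 to 15.8).

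Ratios of paralogs within a library do not depend on scaling, and all 5 pairs examined were apart between the groups. Of all single genes tested, 62.6% did not overlap between the groups. No such share was computed for ratios of other gene pairs, so the 5 ratios show no trait particular to paralogs. EIF4E3 reads were 0.33, 0.349 and 0.304 of EIF4E reads in shE6AP and 0.522, 0.559 and 0.561 in wobble, a log2 difference of -0.74. EIF1B over EIF1 differed by -0.37, EIF4A2 over EIF4A1 by -0.27 and EIF4G3 over EIF4G1 by -0.20, each lower in shE6AP. EEF1A2 over EEF1A1 was higher in shE6AP, with a log2 difference of 0.23. It rests on the EEF1A1 row, which holds a small part of its family's reads, and its nearest libraries were 1.25 in shE6AP and 1.22 in wobble. In exact two-sided permutation tests each of the 5 ratios gave p = 0.1, also after Benjamini-Hochberg adjustment, the smallest value that 3 libraries against 3 allow.

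**Figure D4:**
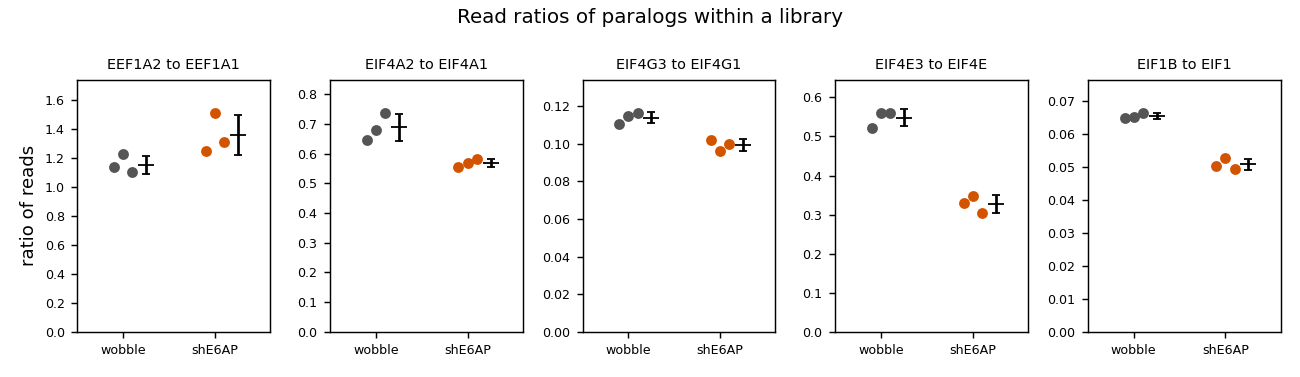
Ratio of read counts between paralogs (vertical axes, from 0) in wobble (grey) and shE6AP (orange) libraries; black bars give the mean and SD of 3 libraries. EEF1A2 to EEF1A1 was higher in each shE6AP library and the other 4 ratios were lower in each.

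Many mRNAs of the translation machinery begin with a C followed by a run of pyrimidines, the 5′ terminal oligopyrimidine (TOP) tract, through which mTOR signalling and LARP1 are known to control their translation and stability. The starts below show this feature in factor genes that fell, and its presence in 2 that did not. They are RefSeq transcript starts of GRCh38.p14, 25 bases before the start and 25 from it, 5′ to 3′, with a C and at least 4 following C or T letters at the start in capitals.
EEF1A1, chr6:73521008-73521057, minus strand: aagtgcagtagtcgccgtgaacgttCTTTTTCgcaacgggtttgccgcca
EEF2, chr19:3985439-3985488, minus strand: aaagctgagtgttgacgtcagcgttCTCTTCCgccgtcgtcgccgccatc
EEF1B2, chr2:206159870-206159919, plus strand: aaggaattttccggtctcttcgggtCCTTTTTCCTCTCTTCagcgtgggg
EIF3D, chr22:36529142-36529191, minus strand: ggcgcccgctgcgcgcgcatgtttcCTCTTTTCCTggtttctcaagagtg
EIF3K, chr19:38619163-38619212, plus strand: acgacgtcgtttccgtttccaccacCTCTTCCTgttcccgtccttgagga
EIF3F, chr11:7987312-7987361, plus strand: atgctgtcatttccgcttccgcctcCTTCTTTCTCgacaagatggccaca
EIF2S3, chrX:24054931-24054980, plus strand: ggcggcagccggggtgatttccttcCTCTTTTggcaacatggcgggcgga
EIF4B, chr12:53006431-53006480, plus strand: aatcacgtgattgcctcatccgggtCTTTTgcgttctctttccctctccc

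For comparison, these starts have no such tract, in genes that rose (EIF2S1 and EIF5) and fell (EIF2B4 and EEF2K).
EIF2S1, chr14:67360303-67360352, plus strand: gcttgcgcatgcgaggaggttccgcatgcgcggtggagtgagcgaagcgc
EIF5, chr14:103334212-103334261, plus strand: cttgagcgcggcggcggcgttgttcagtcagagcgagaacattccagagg
EIF2B4, chr2:27370314-27370363, minus strand: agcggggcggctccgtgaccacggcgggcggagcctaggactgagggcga
EEF2K, chr16:22206253-22206302, plus strand: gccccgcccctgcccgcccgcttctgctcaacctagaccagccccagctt

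RefSeq starts were matched for 48 of the 58 factor genes, with start windows on chromosome 8 left out. No start was matched for EIF2S2, EIF3A and EIF3G, which rose. The same held for EIF2AK1, EIF3CL, EIF3E, EIF3H, EIF3L, EEF1A2 and EEF1D, which fell. Of the 48, 12 (25%) had a pyrimidine tract exactly at an annotated start. Of the 12, 10 fell, 1 rose (EIF2S3) and 1 did not pass (EIF4B), with a median log2 fold change of -0.20. The EEF1A1, EIF3D, EEF1B2 and EIF3K starts printed above belong to those with the largest falls. Of the 36 without a tract, 14 fell, 12 rose and 10 did not pass, with a median of 0.023, and the largest fall of the factor genes, EIF2B4, was among them. Across all 11795 tested genes with a start, 7.12% had the tract, of which 38.5% fell, against 34.1% of the rest. Without ribosomal protein and factor genes these shares were 34.9% and 34.0%. Over all 35116 start windows used, 4.07% had the tract. The feature was chosen with the fold changes known, annotated starts can be off by some bases, and a match shows letters only.

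The E-box CACGTG, which MYC is known to bind and which reads alike on both strands, was searched from 250 bases before to 50 after each start. It was present for 11 of the 48 genes (22.9%) and in 7.26% of all windows used (12.2% of tested genes with a start). Of the 11, 6 fell, 2 rose (EIF4E and EIF4A3) and 3 did not pass, with a median log2 fold change of -0.12. Of all tested genes with the E-box, 33.5% fell and 35.3% rose, with a median of 0.01. Of the 37 without it, 18 fell and 11 rose, with a median of -0.09. EIF4E and EIF4G1 each had 2 copies, and EIF4E rose while EIF4G1 fell.

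**Figure D5:**
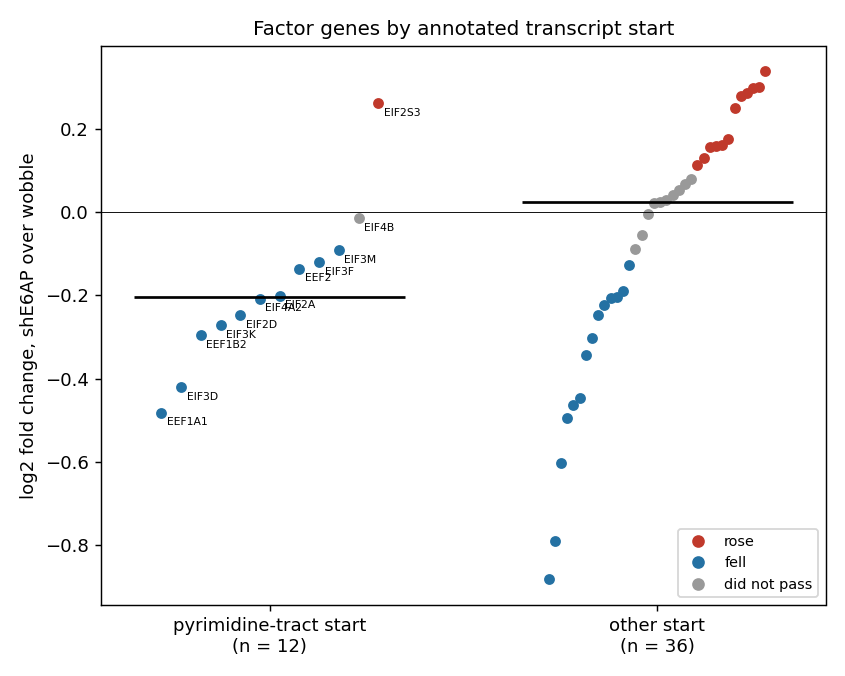
Log2 fold change of shE6AP over wobble (vertical axis) for the 48 factor genes with a matched RefSeq start, split by whether a pyrimidine tract lies at the annotated start. Points are genes (red rose, blue fell, grey did not pass) and black lines medians. The 12 genes with a tract have a median of -0.20, with EIF2S3 the one that rose, and the 36 without have a median of 0.023 and spread from -0.88 to 0.34.

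Regulators of the same pathways were listed by role, together with release factors and mitochondrial translation factors. The list was made with earlier results of these data known, and its genes changed in both directions. Of 46 tested, 20 rose (43.5%), 17 fell (37%) and 9 did not pass, with a median log2 fold change of -0.021. Over all tested genes 28.6% rose and 30.4% fell, and among those of at least 5 CPM 34.5% and 38.1%. Of the eIF4E-binding proteins, which compete with eIF4G for eIF4E, EIF4EBP1 was at 93.3, 93.3 and 89.5 CPM in the shE6AP libraries and 79.9, 74.7 and 73.1 CPM in the wobble libraries (log2 fold change 0.28, SE 0.038, adjusted p = 3.31e-08). EIF4EBP2 was at 223, 231 and 232 CPM in the shE6AP libraries and 207, 211 and 218 CPM in the wobble libraries (log2 fold change 0.11, SE 0.033, adjusted p = 0.00356), and EIF4EBP3 had 5, 5 and 3 reads in shE6AP and 3, 5 and 2 in wobble and was not tested. The libraries of EIF4EBP1 and EIF4EBP2 lay higher in shE6AP without overlap. PDCD4, which binds and inhibits eIF4A, was at 44.2, 46.7 and 48 CPM in the shE6AP libraries and 74.1, 75.5 and 80.8 CPM in the wobble libraries (log2 fold change -0.73, SE 0.042, adjusted p = 3.15e-19). RPS6KB1, the S6 kinase that phosphorylates eIF4B and EEF2K, was at 46.3, 44.4 and 45.6 CPM in the shE6AP libraries and 69.2, 70.7 and 73.8 CPM in the wobble libraries (log2 fold change -0.65, SE 0.041, adjusted p = 5.8e-18). All 3 shE6AP values of both genes lay below their wobble values.

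ABCE1, the ATPase that splits ribosomes for recycling, was at 236, 234 and 234 CPM in the shE6AP libraries and 139.5, 137 and 148 CPM in the wobble libraries (log2 fold change 0.73, SE 0.034, adjusted p = 1.59e-22), a rise larger than that of any factor gene. DPH2, of the diphthamide pathway that modifies eEF2, was at 38.2, 39.5 and 39.3 CPM in the shE6AP libraries and 24.8, 25 and 25.1 CPM in the wobble libraries (log2 fold change 0.64, SE 0.047, adjusted p = 1.06e-15). DPH3 of the same pathway went the other way, by -0.74 (SE 0.059). DPH1, DPH5 and DNAJC24 of that pathway did not pass, with log2 fold changes of -0.076, -0.074 and -0.024. GFM1, a mitochondrial elongation factor, was at 62.4, 60.9 and 63.6 CPM in the shE6AP libraries and 101, 96.1 and 101 CPM in the wobble libraries (log2 fold change -0.67, SE 0.038, adjusted p = 1.49e-19), and TUFM, TSFM, GFM2 and MTIF3 of the same organelle also fell, by -0.20 (SE 0.033), -0.22 (SE 0.057), -0.23 (SE 0.038) and -0.25 (SE 0.058). MTIF2, the mitochondrial initiation factor that brings in the initiator tRNA, rose by 0.10 (SE 0.043), close to the threshold (adjusted p = 0.0458). GSPT2, a copy of the release factor gene GSPT1, had 187, 142 and 190 reads in shE6AP and 1, 1 and 0 in wobble. Scaled for depth this is a ratio of 303 with an exact 95% interval of 83.5 to 2511, which covers counting error only, while GSPT1 changed by -0.16 (SE 0.033). For eIF2 itself, the phosphatase subunits PPP1R15A and PPP1R15B, which reverse the kinases, rose by 0.24 (SE 0.041) and 0.41 (SE 0.036), and ATF4, whose translation rises when eIF2 is phosphorylated, by 0.17 (SE 0.032). DHPS and DOHH, the enzymes that make hypusine on eIF5A, rose by 0.34 (SE 0.044) and 0.23 (SE 0.057). PABPC1, the poly(A)-binding partner of eIF4G, changed by -0.34 (SE 0.032) and its relative PABPC4 by 0.38 (SE 0.033). LARP1 rose by 0.41 (SE 0.032) and RPTOR, of the mTOR pathway, by 0.34 (SE 0.041). MTOR changed by -0.10 (SE 0.035), RHEB by -0.44 (SE 0.034) and TSC2 by -0.25 (SE 0.038), while MLST8 and TSC1 did not pass. Their part in the changes of genes with a pyrimidine tract was not tested.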

How the data were processed

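RNA sequencing measured 3 shE6AP and 3 wobble libraries. The authors deposited whole-number counts per gene, with no normalization. Per the submitters' processing notes, TopHat2 2.0.13 with Bowtie2 aligned the reads to hg19 and HTSeq did the counting. Annotation and strand setting: not given in the sources used here. Per the labels' protocols the kit was TruSeq RNA version 2, which does not mark strand. Left out were 2 summary rows (14.6% to 16.0% of reads outside genes, 2.05% to 2.21% ambiguous), 1 row with no name and 1 incomplete row. Libraries within a group differed beyond sampling noise (a chi-square of 1.75 to 3.47 per gene), so none was merged.

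From the counts, edgeR 4.0.16 in R 4.3.3 fitted all 19433 genes kept by filterByExpr, with TMM factors and group as the only term; its quasi-likelihood test was adjusted after Benjamini-Hochberg over all of them, at a threshold of 0.05. Standard errors are the log2 fold change divided by the root of F. Scripts were tested on simulated data. Members and lists were chosen with earlier results of these data known. Values in every library are given for the 5 largest rises and falls with a mean of at least 5 CPM, for the smallest p in each complex, for paralog pairs, and for the eIF4E-binding proteins and 6 pathway genes. The library values of EIF2S3, EIF2B5, EIF3A, EIF3D, EEF2 and EEF1G, and the pathway genes given by fold change alone, were added after their values were seen. Alternatives were size factors of DESeq2, upper-quartile and total-count scaling, the tools DESeq2 1.42.0 and limma 3.58.1 (voom), no filter, a filter of 1 CPM in 3 libraries, glmTreat against a fold of 1.2, a replicate block, and leaving out each library. Summing parents with their copies was chosen after seeing the data.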

Additional observations from a re-analysis of the deposited data

How the results depend on the processing

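Of the 64 tested rows, Argonaute and pseudogene rows included, 43 kept their call and direction under all 15 alternatives other than the fold threshold. Another 3 (EEF1B4, EIF3CL and EIF5AL1) kept theirs under those in which they have a row of their own. None of the rows called changed direction. Against a fold of 1.2, 2 factor genes were higher and 10 lower, as were 2553 and 3084 of all tested genes and 8 and 7 of the pathway list. Leaving out each library in turn gave 14 to 18 higher and 32 to 35 lower among the 64 rows. The median log2 fold change of eIF3 was -0.126 with upper-quartile scaling and -0.127 with parents and copies summed, that of eIF4A and its helpers changed sign to 0.0127 with upper-quartile scaling, and that of the start-site factors ranged from 0.0189 to 0.104 over single libraries left out, lowest without wobble library 2. The median over all tested genes shifted by 0.028 under upper-quartile factors.

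Changes of sign were found only in rows that did not pass. With upper-quartile scaling, EEF1B1 was at 0.0234, EIF3I at 0.0224 and EIF4B at 0.0127 on the log2 scale. With library totals EEF1B1 was at 0.00545 and EIF3I at 0.00361, and with the filter of 1 CPM they were at 0.00198 and 0.00103. EEF1B1 was at 0.00798 in DESeq2 and 0.0227 in limma-voom, and EIF4G2 at -0.00146 with no filter. With single libraries left out, the ranges were -0.151 to 0.188 for EEF1B1, -0.00285 to 0.0574 for EIF1AX, -0.0212 to 0.118 for EIF2B3, -0.0349 to 0.0307 for EIF3I, -0.00163 to 0.0332 for EIF4G2 and -0.0182 to 0.0502 for EIF5B. The cause was not tested.

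Libraries with the same replicate number deviated together only weakly (r of 0.0438, 0.0166 and 0.0372), and the other pairs gave -0.0325 to -0.00567. Each library thus correlated best with its own number. The deviations were taken from the group means, so the values of the pairs are not independent of each other. The labels do not say whether the number marks a pairing, and these values do not settle it. With a replicate block 18 of the 64 rows were higher and 36 lower: EIF2B1, EIF4A1 and EIF5A passed in addition. Depth limits EEF1G, EEF1B1, EEF1B4, EEF1B3 and EIF4EBP3, where a library has few reads.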
